A study of Mus musculus with 6 samples.

Results

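The comparison described here is the step from the cervical loop (CL) to the secretory (Sec) stage in control (CON) mouse incisors, and its members are the 8757 genes whose probe was detected on either of the 2 CON arrays, out of 16593 genes with a probe. The rule used detection alone and no difference between the arrays. Dental tissue was dissected from the lower incisors of C57BL/6 mice at 4 wk, and the tissue of 3 mice was combined for each array, so that a group is 1 array. CON mice were Med1 fl/fl littermates without Cre. KO mice carried the same floxed alleles and a Cre driven by the Krt14 promoter, which acts in Krt14-expressing epithelium only, so that Med1 remains in the other cells of the tissue. The CON arrays covered CL, Sec and the maturation (Mat) stage, as did the KO arrays, 6 arrays in all. Besides the CON CL and CON Sec arrays, the others are used below as levels set beside the 2, and the KO pair as the same 2 positions in another genotype, not as a replicate.

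The incisor of the mouse grows throughout life. Epithelial stem cells of the CL give rise to dividing progenitors, which become ameloblasts, the cells that lay down enamel. At the Sec stage ameloblasts export the matrix proteins amelogenin, ameloblastin and enamelin, which the protease Mmp20 trims. At the Mat stage they remove the matrix, with Klk4 as the main protease, and move calcium, phosphate, bicarbonate, protons and, in rodent incisors, iron. The region dissected as CL also held the inner dental epithelium and transit-amplifying cells, and the Sec tissue was taken between the CL and the Mat region. All of it lay between bone and dentin, so other cell types are in it. In bulk tissue, fewer cells of a type and less RNA per cell cannot be told apart.

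On the log2 scale used below, a difference is Sec minus CL. "Higher" and "lower" at Sec mean a fold change of 1.5 or more, in a gene whose brighter array detected it at a detection p-value under 0.01. Where only 1 of the 2 arrays detected it, the difference is a bound against the lowest value detected on the other array, written as "at least". The lowest detected values were 6.19 on CON CL and 6.13 on CON Sec, and the highest value among genes that missed the rule was 6.18. The smaller of the 2 detection p-values lay from 0.005 to under 0.01 in 278 genes just inside the rule, and from 0.01 to under 0.015 in 228 genes just outside it. Each stage is a single array, so the spread between animals is unknown, no test was made and differences carry no p-value. As a yardstick, the CL arrays of KO and CON, which are the same position in the 2 genotypes, differed past the same threshold in 335 of 8794 genes (3.81%), and the SD of their differences was 0.26, against 0.44 between CON Sec and CON CL.

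Sex-linked genes differed between the pools of mice. Xist, the RNA of the inactive X chromosome, was 11.11 on CON CL and 5.38, not detected, on CON Sec. The Y-linked Eif2s3y was 6.36 on CON CL and 10.15 on CON Sec, and the Y-linked Kdm5d was 6.07, not detected, and 7.95. CON Mat had both Xist (9.02) and Eif2s3y (9.44), and in KO, Xist was 11.07 at CL and 8.72 at Sec. On the 2 CL arrays of the yardstick Xist was alike (11.11 and 11.07), while Eif2s3y was 6.36 on CON CL and 8.08 on KO CL. That yardstick therefore does not carry the difference in Xist seen between CON CL and CON Sec. For any single gene the stage and the sex of the pools cannot be told apart. Of the 287 members on chromosomes X and Y, 16 were higher and 19 lower at Sec. These shares are near those of all members, 6.58% higher and 5.58% lower. Among 8 detected genes of a sex-linked list put together after these values were seen, 3 were higher and 3 lower.

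The windows printed here are the 250 bases before the annotated start, from RefSeq on GRCm38.p6. They are those of Klk4 and Slc24a4, the largest measured and largest bounded differences upward, and of genes from 2 groups that differed together. For those groups the window was taken from the genes with the largest differences whose window holds the letters searched and lies outside the gene. Capitals mark matches on either strand. In Klk4 and Slc24a4 the search covered the core of the interferon-stimulated response element, which is 2 copies of GAAA with any 2 bases between them. It also covered the CCAAT box, the E2F-type letters TTCCCGC, the E-box of the lysosomal type, which reads TCACGTG, and the TATA-type letters TATAAA. Klk4 had no match, and Slc24a4 had CCAAT on the other strand, 164 bases before the start. In the interferon-induced genes Rsad2 and Isg15 the capitals mark the response element, once on the other strand in Rsad2 and as 3 overlapping matches in Isg15. In Mcm2, a helicase subunit of DNA replication, they mark CCAAT on the other strand.
Klk4 (chr7:43880910-43881159, plus strand): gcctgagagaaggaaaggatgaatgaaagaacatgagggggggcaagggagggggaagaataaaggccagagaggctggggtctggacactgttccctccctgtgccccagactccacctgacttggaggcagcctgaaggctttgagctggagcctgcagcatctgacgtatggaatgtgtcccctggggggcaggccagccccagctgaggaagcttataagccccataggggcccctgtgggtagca
Slc24a4 (chr12:102128477-102128726, plus strand): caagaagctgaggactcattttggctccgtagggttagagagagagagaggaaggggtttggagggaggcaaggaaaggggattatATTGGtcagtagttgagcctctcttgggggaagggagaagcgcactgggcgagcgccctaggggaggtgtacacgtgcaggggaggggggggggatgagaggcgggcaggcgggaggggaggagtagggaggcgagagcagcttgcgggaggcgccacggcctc
Rsad2 (chr12:26456453-26456702, minus strand): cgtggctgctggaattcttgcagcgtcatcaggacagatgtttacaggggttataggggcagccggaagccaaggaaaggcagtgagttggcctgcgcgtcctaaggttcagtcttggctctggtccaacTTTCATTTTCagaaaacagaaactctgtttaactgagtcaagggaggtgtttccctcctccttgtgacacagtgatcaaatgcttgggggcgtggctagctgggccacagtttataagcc
Isg15 (chr4:156200819-156201068, minus strand): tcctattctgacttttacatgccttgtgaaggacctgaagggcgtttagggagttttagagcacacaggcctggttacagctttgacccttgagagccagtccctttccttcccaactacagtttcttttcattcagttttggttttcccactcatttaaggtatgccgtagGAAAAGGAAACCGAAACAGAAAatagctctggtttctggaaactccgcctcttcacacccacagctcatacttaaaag
Mcm2 (chr6:88898781-88899030, minus strand): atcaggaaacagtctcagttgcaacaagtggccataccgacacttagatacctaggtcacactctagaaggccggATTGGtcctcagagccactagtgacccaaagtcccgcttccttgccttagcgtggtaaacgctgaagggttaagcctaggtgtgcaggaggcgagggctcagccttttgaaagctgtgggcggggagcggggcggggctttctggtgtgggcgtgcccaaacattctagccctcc

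Of the 8757 members, 576 were higher at Sec (6.58%), 489 were lower (5.58%) and 7692 were neither. Large differences lay mostly upward. Past 2-fold the counts were 207 upward (2.36%) and 103 downward (1.18%), past 4-fold 45 (0.514%) and 5 (0.0571%), and past 8-fold 13 and 1. The single gene lower by more than 8-fold was Xist. When the arrays were scaled to a common median in place of quantiles, 469 genes were higher and 694 lower, so the share of the calls that lay upward went from 54.1% to 40.3%. The median difference of all members was -0.05 with quantiles and -0.12 with that scaling. Across members, which are not independent replicates, the 2 arrays had a Pearson correlation of 0.968.

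**Figure D1:**
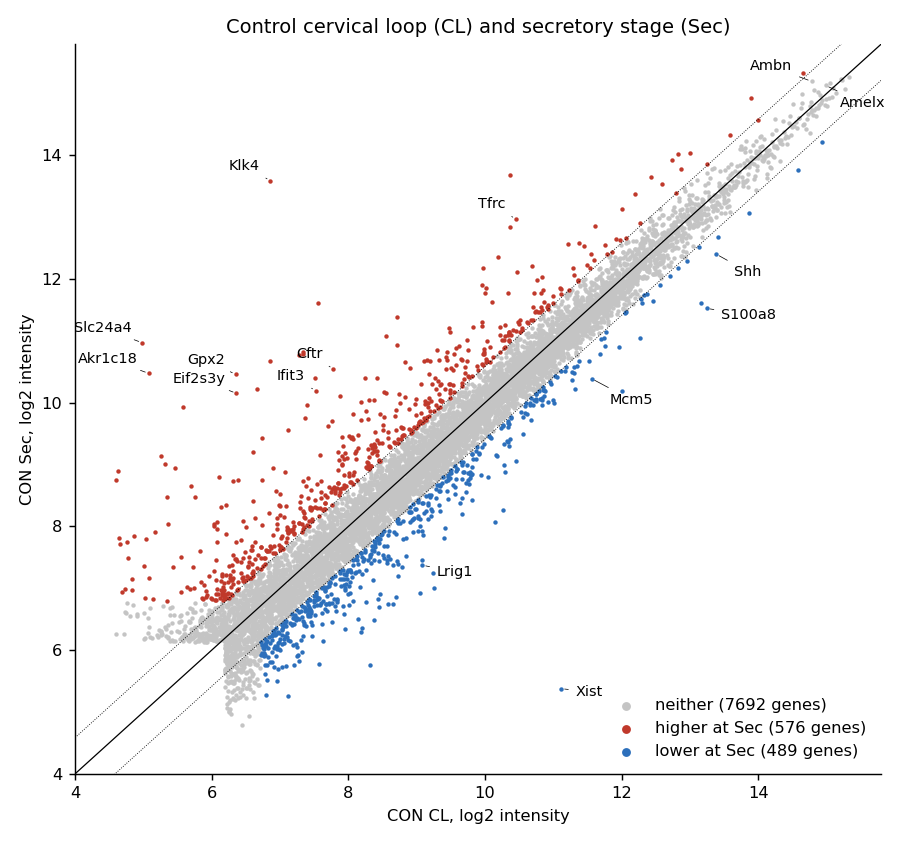
Log2 intensity on the CON CL array (x axis) and on the CON Sec array (y axis), 1 point per member, with the line of equality and dotted lines at a fold of 1.5. The 576 genes higher at Sec (red) reach far from the line at the dim end of CL, as Klk4 and Slc24a4 do, while Amelx and Ambn lie near the line at the bright end.

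The genes of the enamel matrix were bright at both positions, and the protease of maturing enamel was where they differed most. Amelogenin (Amelx) was 14.98 on CON CL and 15.13 on CON Sec, a difference of 0.15, and ameloblastin (Ambn) was 14.78 and 15.20, a difference of 0.42. Neither passed the threshold. The highest value was 15.32 on every array, since quantile normalization gives the arrays 1 distribution. Before normalization Ambn was 28610.9 on CON CL and 37851.4 on CON Sec, below the highest intensities of 41441.7 and 41251.7. Whether differences near the top of the scale are compressed was not tested. Enamelin (Enam) was 12.01 at CL and 13.13 at Sec (difference 1.13), and Mmp20 was 9.73 and 10.67 (0.94). Both were higher at Sec. Klk4 (GRCm38.p6 chromosome 7, 43881160 to 43885804) was 6.86 at CL, near the lowest detected values, and 13.59 at Sec. That difference of 6.74, 107-fold, was the largest of any gene detected on both arrays. Its size depends on the background correction, since CL lay near the lowest detected values, and with the deposited normalized values it was 5.68. Klk4 was 14.38 on CON Mat. On the KO pair Klk4 was 6.19 and 13.21. Among 12 detected members of the list of enamel matrix genes and proteases, 7 were higher at Sec, 5 were neither and none was lower. The share higher was 58.3%, against 6.58% of all members, and the median difference was 0.78. The other members counted as higher were the casein Csn3 (at least 2.56), the integrin subunit Itgb6 (1.44), whose loss impairs enamel in mice, tuftelin (Tuft1, 1.07) and Fam20a (0.61), a pseudokinase that activates the secretory kinase Fam20c. Fam20a was not counted when arrays were scaled to a common median or when the probes of a gene were averaged. All 7 were also higher at Sec on the KO pair. Dspp, Wdr72 and Cnnm4 were not detected on either CON array. By these markers the tissue labelled CL already held much enamel matrix mRNA, and the tissue labelled Sec held Klk4, which is known from the Mat stage.

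Genes for moving calcium, phosphate, bicarbonate and protons were higher at Sec as a group. Among 26 detected members 17 were higher (65.4% against 6.58% of all members), 8 were neither and 1 was lower. Their median was 0.80, against -0.05 over all genes of the comparison. The sodium/calcium/potassium exchanger Slc24a4, which exports calcium from ameloblasts into enamel, lies on chromosome 12 from 102128727 to 102267133. It was 4.98 on CON CL, not detected, 10.97 on CON Sec and 12.38 on CON Mat. Its difference was at least 4.78, 27.5-fold, the largest bound upward. Calcium entry and storage genes were higher too. The store sensor Stim1 was 9.74 at CL and 11.01 at Sec (1.28), and its channel Orai1 was 8.59 and 9.44 (0.85). The calcium release channels Itpr2 (1.39) and Itpr3 (0.73) and the pump of the endoplasmic reticulum Atp2a2 (1.08) were on the same side, as was the plasma membrane pump Atp2b1 without passing the threshold (0.58).

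Among anion transporters the chloride channel Cftr was 7.78 at CL, 10.55 at Sec and 11.55 on CON Mat (2.77, 6.82-fold between CL and Sec). The exchanger Slc26a7 was 6.60 and 9.21 (2.61), Slc26a1 was not detected at CL and 7.74 at Sec (at least 1.55), and the bicarbonate exchanger Slc4a2 was 11.54 and 12.41 (0.87). The phosphate transporter Slc34a2 was 5.75, not detected, at CL and 8.47 at Sec (at least 2.28). The sodium pump subunits Atp1b1 (1.56) and Atp1b3 (0.74), carbonic anhydrase Car2 (0.68) and alkaline phosphatase Alpl (12.80 and 13.40, 0.60) were also higher. Alpl passed narrowly, at 1.51-fold, and was neither on the KO pair (12.73 and 12.69). The exchanger Slc26a6 was the member counted as lower (-0.72), a call that was lost in the deposited normalized values and with an offset of 50. The phosphate transporter Slc20a2 (0.46) and the pyrophosphate exporter Ank (-0.42) were neither. Of these 17, 14 were also higher on the KO pair.

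**Figure D2:**
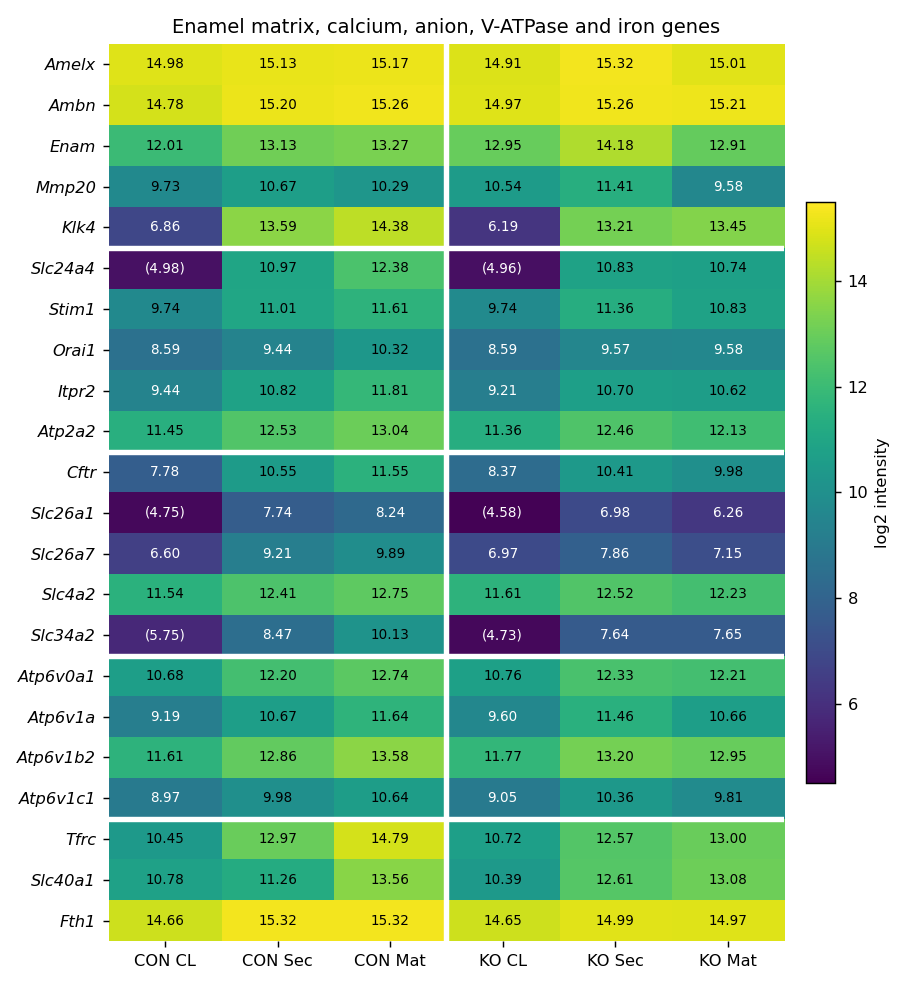
Log2 intensity on each of the 6 arrays (columns) for genes of the enamel matrix, calcium transport, anion and phosphate transport, the V-ATPase and iron (rows, in blocks), with values in parentheses where the probe was not detected. Colours compare arrays within a row, not genes with each other. Klk4 and Slc24a4 go from the dimmest to bright colours between CON CL and CON Sec, while Amelx and Ambn are bright on every array.

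The vacuolar proton pump (V-ATPase), which acidifies vesicles and, in maturing ameloblasts, the enamel surface, was on the upward side at Sec. All 14 of its detected subunits and accessory proteins lay above 0, 9 were higher and 5 neither, and their median was 0.69. This subset of the list was set apart after its values were seen. Atp6v0a1 was 10.68 at CL and 12.20 at Sec (1.52), Atp6v1a was 9.19 and 10.67 (1.47), Atp6v1b2 was 11.61 and 12.86 (1.25), and Atp6v1c1 was 8.97 and 9.98 (1.01). On the KO pair all 14 lay above 0 as well. Of 25 other lysosomal proteins only the membrane receptor Scarb2 (0.79, not counted in the deposited normalized values) and the protease Ctsh (0.62) passed, and their median was 0.30. Over the whole list of 39 detected genes 11 were higher (28.2% against 6.58% of all members) and none lower. The letters TCACGTG lay in the windows of 8 of 31 of these genes that have one (25.8%) and of 968 of all 27025 genes with a window (3.58%). Among the list's genes counted as higher it was 2 of 7 (28.6%), near the share of the whole list.

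Iron genes followed in part. The transferrin receptor Tfrc was 10.45 at CL, 12.97 at Sec and 14.79 on CON Mat (2.52, 5.73-fold between CL and Sec). Ncoa4, which delivers ferritin to lysosomes, was higher (0.86), as was heme oxygenase Hmox1 (0.72, lost in the deposited normalized values). The ferritin heavy chain Fth1 was 14.66 at CL and at the top of the scale, 15.32, at Sec (0.66), a call that was lost when probes were averaged. The exporter Slc40a1 was 10.78 and 11.26, short of the threshold (0.48). Of 10 detected members 4 were higher (40.0% against 6.58% of all members) and none lower.

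The machinery that makes and exports protein did not differ by the same rule. Of 25 detected genes of translocation into the endoplasmic reticulum none was higher or lower (median -0.03). Of 33 chaperones and genes of the unfolded protein response 1 was higher, the co-chaperone Dnajb9 (0.66), and none lower. Of 39 genes of COPII, COPI and Golgi traffic 1 was higher, the cargo receptor Tmed2 (0.61). None of 53 ribosomal protein genes passed, and their median was -0.12. For nucleolar genes, which assemble ribosomes, the median was -0.33 and 22 of 26 lay below 0, with Gar1 (-0.59) past the threshold. In oxidative phosphorylation 62 of 66 detected genes lay above 0 and the median was 0.29. The 4 past the threshold, among them cytochrome c1 (Cyc1, 11.11 and 11.76, 0.65), were 6.06%, near the 6.58% of all members. The calls of Dnajb9, Tmed2 and Cyc1 were lost when arrays were scaled to a common median. In glycolysis 1 of 17 detected genes was higher (5.88%), and in sterol synthesis 1 of 24 (4.17%).

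**Figure D3:**
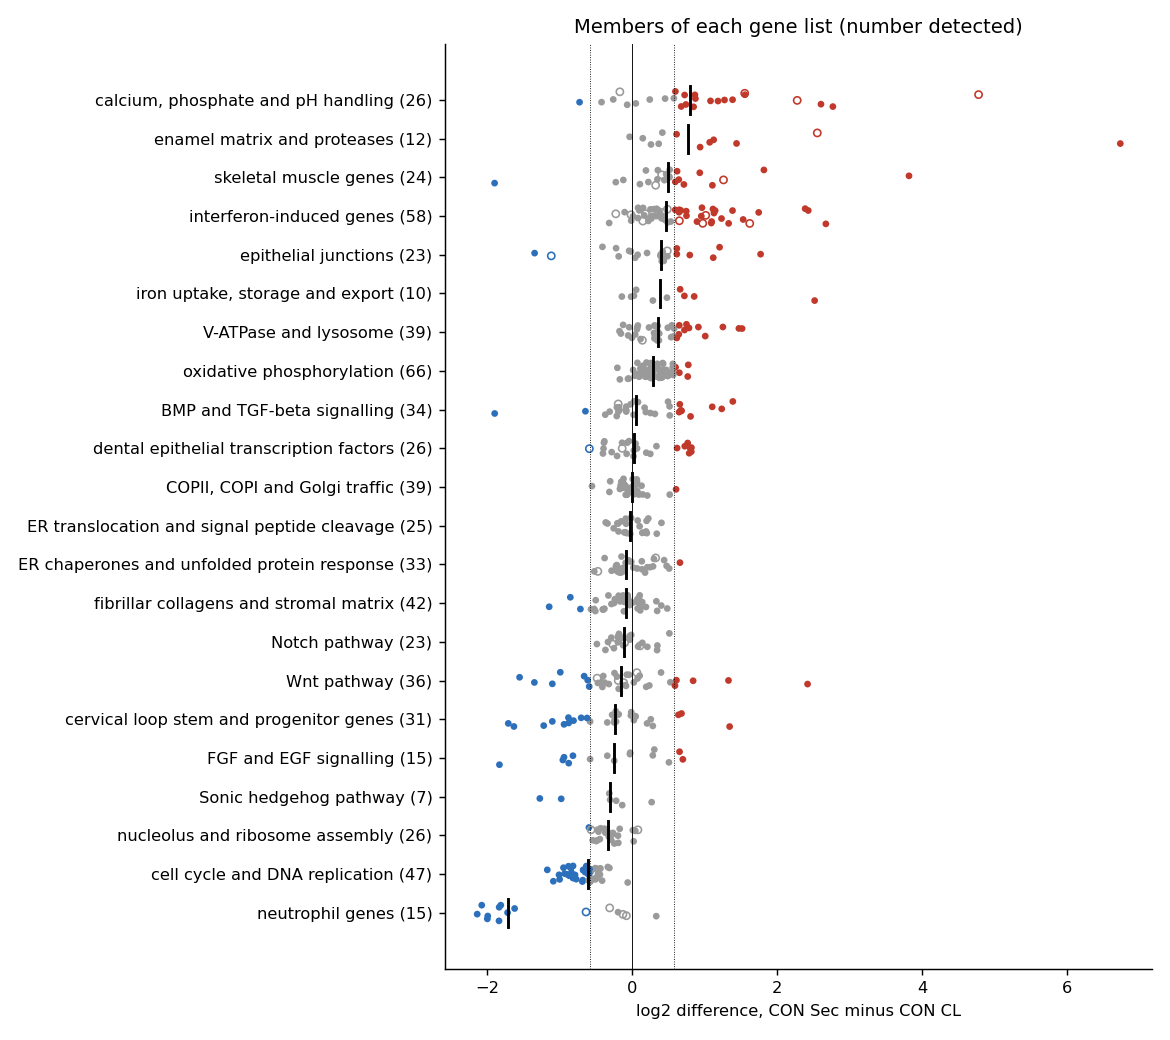
Log2 difference, CON Sec minus CON CL (x axis), of each detected member of 22 gene lists (y axis, number detected in parentheses), with the list median as a black bar and dotted lines at a fold of 1.5. Red points are higher and blue points lower at Sec, grey points are neither, and open points are bounds. All 47 cell cycle genes lie left of 0, and lists of protein export centre on 0.

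Cell cycle genes shifted downward at Sec. All 47 detected genes of the cell cycle and DNA replication lay below 0, 27 were lower by the threshold (57.4% against 5.58% of all members), and none was higher, with a median of -0.61. Mcm5, a subunit of the replicative helicase, was 11.56 on CON CL, 10.39 on CON Sec and 8.73 on CON Mat, a difference of -1.17 between CL and Sec. Its partners Mcm2 (-0.87), Mcm3 (-0.77) and Mcm7 (-0.90, lost in the deposited normalized values) were lower too, as were the DNA ligase Lig1 (-0.95) and Cdt1, which licenses replication origins (-0.67). The transcription factors E2f1 (9.02 and 7.93, -1.09) and Foxm1 (8.80 and 7.80, -1.0), which drive replication and mitosis genes, were lower. So were Top2a (-0.79), the mitotic kinase Cdk1 (-0.65) and cyclin D1 (Ccnd1, 13.14 and 12.51, -0.62). All of these named genes were still detected at Sec, while Pcna, the sliding clamp of DNA replication, was detected at CL only (6.72 and 6.10) and was neither. On the KO pair 41 of the 47 were lower, with a median of -1.09. The letters CCAAT lay in 24 of 39 windows of this list (61.5%) against 37.5% of all genes, and TTCCCGC in 5 of 39 (12.8%) against 4.38%.

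Histone genes differed by class, a split made after their values were seen. Of 35 detected genes of histones and chromatin assembly 6 were higher and 10 lower. The shares were 17.1% and 28.6%, against 6.58% and 5.58% of all members. Of 10 detected H2A genes, the variant H2ax (-0.77) included, all lay below 0 and 6 were lower. All 7 H2B genes lay above 0 and 5 were higher, among them H2bc4 (10.87 at CL and 11.63 at Sec, 0.77) and H2bc11 (10.49 and 11.28, 0.78). The assembly factors Chaf1a (-0.69) and Chaf1b (-0.70) were lower. Histone genes of a class are near copies of each other, so a probe may read several of them and the single genes are uncertain.

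Of 31 detected genes of the CL stem cell and progenitor list, 10 were lower at Sec, 3 were higher and 18 were neither. The shares were 32.3% lower and 9.68% higher, against 5.58% and 6.58% of all members. Sox2, the marker of dental epithelial stem cells, and Lgr5 were not detected on either CON array. The paper reports Sox2 staining enriched in the CL of CON incisors, and measured Sox2 mRNA at CL, Sec and Mat by QPCR. Lrig1, a brake on EGF receptors that marks stem cells of several epithelia, was 9.08 at CL, 7.37 at Sec and 7.40 on CON Mat (-1.71). In KO it went the other way, from 8.63 to 9.96. The transcription factor Meis1 was 8.14 and 6.51 (-1.63). The basement membrane protein Vwa2 was 12.27 at CL, 11.05 at Sec and 8.07 on CON Mat (-1.22), and on the KO pair it was 11.77 and 9.52. The immediate early factor Egr1 was 11.77 and 11.15 (-0.62). The matrix protein Ccn1 was lower (-0.88) and its relative Ccn2 was neither (-0.28). The transcription factor Sox21 was higher, with 11.21 at CL and 12.56 at Sec (1.35). Sox9, Twist2 and Dlk1 were neither (0.21, -0.22 and -0.01), although on CON Mat Dlk1 was 6.92 against 11.14 at CL and 11.13 at Sec.

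Signals between epithelium and mesenchyme differed in both directions. Shh, which the dental epithelium secretes, was 13.38 at CL and 12.40 at Sec (-0.98), and Hhip, its target and inhibitor, was 8.65 and 7.38 (-1.27). Ptch1, the receptor and target of Shh, was 7.63 and 7.33 and did not pass (-0.30). The mesenchymal growth factors Fgf7 (8.58 and 6.75, -1.83) and Fgf10 (9.79 and 8.84, -0.95), which feed the CL, were lower, as were Etv4 (-0.94) and Etv5 (-0.87), transcription factors downstream of FGF receptors. Of 15 detected FGF and EGF genes 5 were lower (33.3%) and 2 higher (13.3%), against 5.58% and 6.58% of all members. Fgf1 (0.70) and Fgfr3 (0.66) were the 2, and both calls were lost in the deposited normalized values.

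In the Wnt pathway 3 of the 6 detected ligands were higher and several secreted inhibitors lower. Wnt10b was 6.31 at CL, 8.73 at Sec and 10.81 on CON Mat (2.42), Wnt7b was 7.0 and 8.33 (1.33), and Wnt4 was 8.38 and 9.23 (0.84). The secreted inhibitors Sfrp2 (13.16 and 11.61, -1.55), Dkk1 (8.73 and 7.38, -1.35), Sfrp5 (8.02 and 6.92, -1.10), Notum (-0.99) and Sostdc1 (-0.66) were lower, while Sfrp4 was higher (0.61) and lower on the KO pair. The ligands Wnt5a, Wnt6 and Wnt10a and the inhibitors Frzb, Wif1, Sfrp1 and Dkk3 were neither. Of 36 detected members 5 were higher (13.9%) and 7 lower (19.4%), against 6.58% and 5.58% of all members. Axin2, a common target of the pathway, was at -0.08. Of 34 BMP and TGF-beta genes 9 were higher, led by Id4 (9.83 and 11.22, 1.39), an inhibitor of helix-loop-helix factors, the activin subunit Inhbb (7.09 and 8.33, 1.24) and Bmp3 (9.43 and 10.54, 1.11). The share higher was 26.5%, against 6.58% of all members. The list median was 0.06, and -0.01 when arrays were scaled to a common median. Gdf10 was lower, with 8.19 and 6.30 (-1.90). None of 23 detected Notch pathway genes passed in either direction. Notch1 was 9.98 and 9.65, Hes1 9.64 and 9.99, and Hey1 13.01 and 13.53 (0.51). On the KO pair Notch1 was higher (1.34) and Hey1 lower (-0.89).

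Of 26 dental epithelial transcription factors, 7 were higher at Sec (26.9% against 6.58% of all members) and 1, Dlx5, was lower by a bound (-0.59). The 7 were Foxo1 (9.97 at CL and 10.79 at Sec, 0.82), Irx2 (0.82), Dlx4 (0.80), Runx1 (0.79), the vitamin D receptor Vdr (0.77), Cebpb (0.73) and Klf5 (0.62). Irx2, Dlx4, Runx1 and Klf5 did not pass in the deposited normalized values. Junction genes differed in both directions. Claudin 1 (Cldn1), a tight junction protein, was 9.99 and 11.77 (1.77), the adhesion molecule Nectin3 was 10.83 and 12.04 (1.21), and F11r was 7.98 and 9.10 (1.12). Cldn6 was 7.93 and 6.58 (-1.34), and Cldn4, detected at CL only, was lower in CON (bound -1.11) while it was 7.33 and 12.08 on the KO pair. Of 23 detected junction genes 6 were higher (26.1%) and 2 lower (8.7%), against 6.58% and 5.58% of all members. Laminin subunit Lamb3, part of the basal lamina, was higher (12.19 and 13.38, 1.18) and the matrix protein Smoc1 lower (9.82 and 8.43, -1.38). Of 32 basement membrane genes 2, Lamb3 and Itgb6, were higher, 1 was lower and 29 were neither. The share higher, 6.25%, was near the 6.58% of all members. Keratins of simple and stratified epithelia went both ways, with 2 of 12 detected genes higher and 2 lower (median 0.18). Each share was 16.7%, against 6.58% and 5.58% of all members. The simple epithelial keratins Krt18 (8.43 and 6.83, -1.60) and Krt8 (10.35 and 9.65, -0.70) were lower. Krt42 (6.48 and 7.59, 1.10) and Krt6b, detected at Sec only (at least 0.75), were higher. Krt14, which drives the Cre of the KO line, was 14.50 and 14.83. Med1 itself was 9.58 and 9.35 (-0.23).

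Several of the largest differences belonged to none of these groups. The antioxidant enzyme Gpx2 was 6.35 at CL, 10.46 at Sec and 12.91 on CON Mat (4.11, 17.3-fold between CL and Sec), and the reductase Akr1c18 was 5.08, not detected, 10.47 and 13.07 (at least 4.29). Further detoxifying enzymes, a group put together after these values were seen, included Cbr2 (2.53), Cyp2s1 (2.13) and the cystine transporter Slc7a11 (1.67). In that group 9 of 43 detected genes were higher (20.9% against 6.58% of all members) and 1 was lower. All 9 were higher on the KO pair. The cell cycle inhibitor Cdkn2b was 7.55 and 11.61 (4.06), opposite in direction to the cell cycle genes. Rcan1, an inhibitor of the calcium-dependent phosphatase calcineurin, was 10.37 and 13.69 (3.32, and 5.30 when its probes were averaged). The calcium-activated potassium channel Kcnn4 was 5.59, not detected, and 9.93 (at least 3.74). Gad1, which makes GABA, was 6.66 and 10.23 (3.56), Tns4, a focal adhesion protein, 7.28 and 10.77 (3.49), and Sh3rf2 7.34 and 10.82 (3.48). The neuropeptide precursors Pmch (7.34 and 10.79, 3.45) and Cck (5.70, not detected, and 8.65) were high at Sec in CON, while Pmch was 7.83 and 8.06 and Cck was not detected on the KO pair. Gpnmb was 6.74 and 9.43 in CON (2.70) and 6.69 and 13.41 in KO. Among genes detected on both arrays, the potassium channel subunit Kcne4 was lowest relative to CL (9.25 and 7.0, -2.25), and Ccn5, of the family of Ccn1 and Ccn2, was 8.65 and 6.75 (-1.90). Claudin 2 (Cldn2), on chromosome X, was 8.32 at CL and not detected at Sec (5.77), at least 4.54-fold lower.

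Markers of other cell types differed between the arrays too. Neutrophil genes were lower at Sec, with 10 of 15 detected genes past the threshold (66.7% against 5.58% of all members), none higher and a median of -1.72. Of the 15, 11 were at their lowest of all 6 arrays on CON Sec. Such counts were not made over all members, and they include values where a probe was not detected. S100a8 was 13.24 on CON CL, 11.53 on CON Sec and 11.98 on CON Mat, and Ltf, Camp, Ngp and Lcn2, all granule proteins, lay between -1.99 and -2.14. On the KO pair 13 were lower, with a median of -0.92. The sum of the linear values over the 15 genes was 24154 at CL and 11029 at Sec. Without this list 479 genes were lower. Of 24 detected skeletal muscle genes 9 were higher (37.5% against 6.58% of all members) and 1 was lower (Tnnt1, -1.90), with a median of 0.49. The muscle-type cytochrome oxidase subunits Cox7a1 (6.85 and 10.67, 3.82) and Cox6a2 (8.19 and 10.01, 1.82) led the list, ahead of Myh1 (at least 1.26). At Mat both subunits were brighter in CON (11.38 and 12.28) than in KO (10.26 and 11.36). Mylpf, a myosin light chain, was dimmer there in CON (11.72) than in KO (13.63). At CL and Sec Mylpf was 7.90 and 9.01 in CON and 8.08 and 12.90 in KO, and the KO median of the list was 2.62. The sum of linear values over these 24 genes was 13837 at CL and 19872 at Sec. The part of neutrophils and of muscle in the values of single genes was not tested.

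Mesenchymal, endothelial and hard tissue markers differed less than neutrophil and muscle markers, while pericyte and smooth muscle markers lay partly downward. Over all members 6.58% were higher and 5.58% lower. Of 23 detected genes of dental papilla and follicle 3 were lower and none higher (median -0.26), and Pax9, Lhx6 and Postn were not detected. Of 13 odontoblast genes 2 were lower (15.4%), the sphingomyelinase Smpd3 (-0.66) and Ifitm5 (-0.62), and Dspp and Dmp1 were not detected. None of 8 bone and osteoclast genes passed. Osteocalcin (Bglap), which shares nearly all of its sequence with Bglap2, was 14.81 and 15.05, so hard tissue mRNA was bright on both arrays. Of 18 endothelial genes 1 was higher and 2 lower, and of 19 macrophage genes 3 were higher and none lower (median 0.39). Of 42 stromal matrix genes 3 were lower (7.14%), led by Col8a2 (9.07 and 7.93, -1.14). For epidermis and hair, 6 of 24 genes with a probe were detected, of which 1 was higher (16.7%) and 2 lower (33.3%). Krt71 was not detected on either CON array. Loricrin (Lor) was 8.01 and 7.48. Of 11 pericyte and smooth muscle genes 3 were lower (27.3% against 5.58% of all members) and none higher. They were Tagln (-1.08), Acta2 (14.58 and 13.77, -0.81) and Myh11 (-0.68). The sum of linear values over these 11 genes was 29225.7 at CL and 18319.5 at Sec. Of 7 nerve genes 1 was lower (14.3%). Gapdh was 14.08 and 14.26.

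Interferon-induced genes formed a group on the CON Sec array. They were put in a list after Ifit3, an antiviral protein and one of the 15 largest differences upward, was seen. Ifit3 was 7.52 on CON CL, 10.19 on CON Sec and 8.35 on CON Mat, and on the KO arrays it was 7.64, 7.11 and 7.59. Rsad2 was 7.12, 9.55 and 7.49 in CON, and Isg15, a ubiquitin-like protein, was 7.36, 9.75 and 8.17. The CON Sec array was the highest of all 6 for each of them. Of 58 detected members 26 were higher at Sec (44.8% against 6.58% of all members) and none lower, with a median of 0.47, and 40 had their highest value on CON Sec. Of the 26, none was higher on the KO pair and 9 were lower there. The chemokine Cxcl10 was detected on CON Sec (7.81) and on no other array. The core of the response element, in capitals in the Rsad2 and Isg15 windows, lay in 17 of the 48 detected list members that have a window (35.4%), in 10 of the 20 with a window among the 26, and in 3.46% of all genes. All of this rests on a single array, on which 10 of 19 macrophage genes also had their highest value of the 6 (list medians 0.39 in CON and -0.22 in KO). The part of macrophages in these values was not tested. The share of all members with their highest value on CON Sec was not counted. Without the list 550 genes were higher at Sec.

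**Figure D4:**
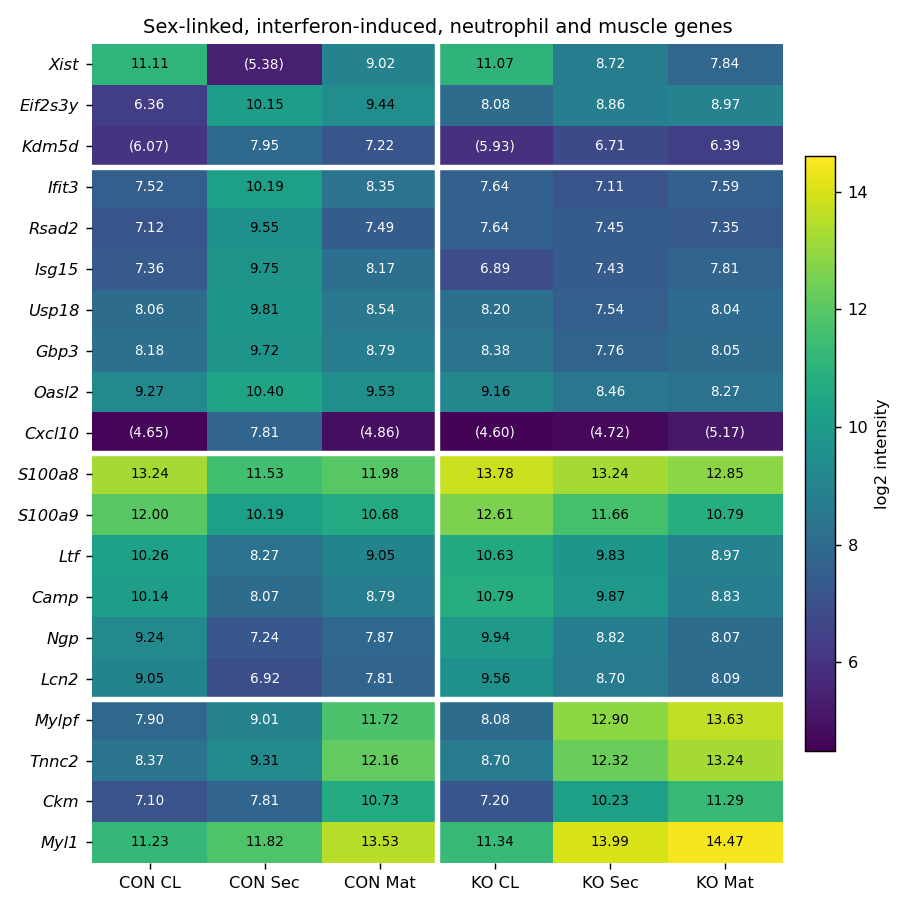
Log2 intensity on each of the 6 arrays (columns) for sex-linked, interferon-induced, neutrophil and muscle genes (rows, in blocks), with values in parentheses where the probe was not detected and colours that compare arrays within a row. Ifit3, Rsad2 and Isg15 have their highest values on CON Sec (10.19, 9.55 and 9.75), where S100a8 has its lowest (11.53) and Xist was not detected.

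The KO pair shares no array with the CON pair, so the same step can be set beside it. Of the 576 genes higher at Sec in CON, 360 were higher in KO, 30 were lower, 179 were neither and 7 were not detected. In KO 14.5% of the 9249 genes detected on that pair were higher. Of the 489 genes lower at Sec in CON, 306 were lower in KO and 38 higher, and 19.3% of all genes detected on the KO pair were lower. Xist was lower and Eif2s3y higher at Sec on the KO pair too (11.07 and 8.72, 8.08 and 8.86), so stage and the sex of the pools cannot be told apart on that pair either. The calcium, phosphate and pH genes had medians of 0.80 in CON and 0.90 in KO, and the V-ATPase and lysosome genes 0.35 and 0.49. The cell cycle genes had medians below 0 on both (-0.61 and -1.09), and the interferon-induced genes differed in sign (0.47 and -0.40).

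**Figure D5:**
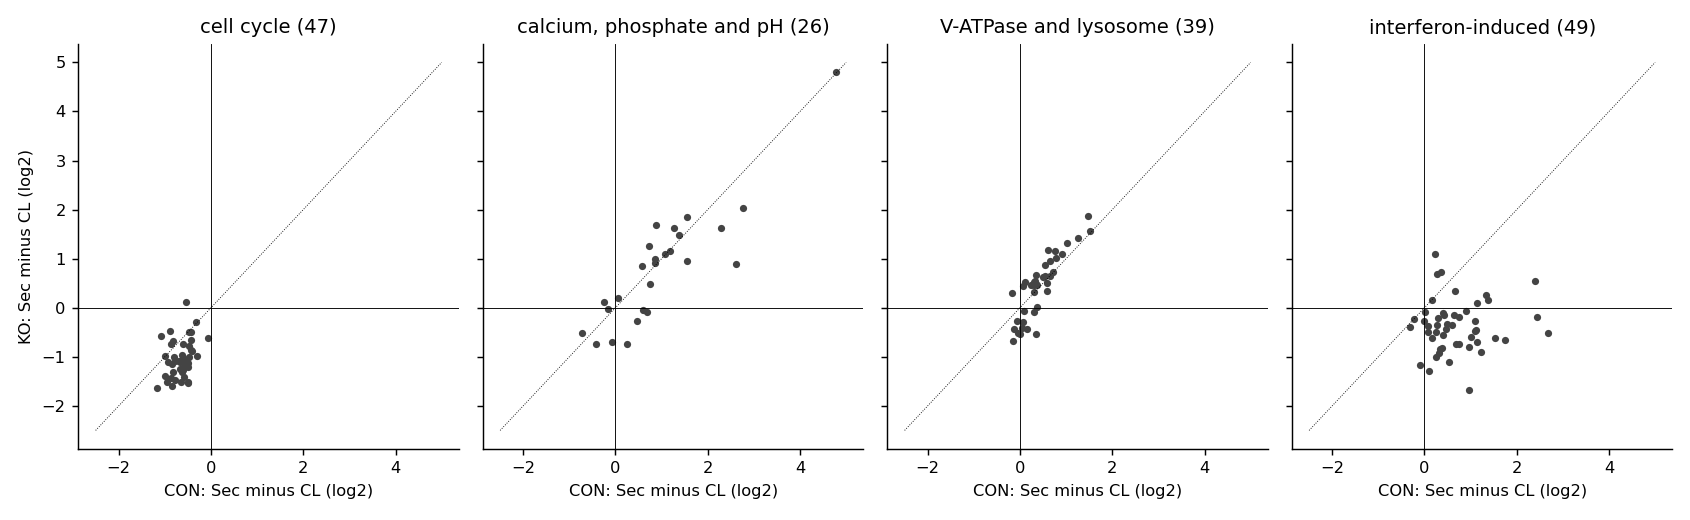
Log2 difference, Sec minus CL, on the CON pair (x axis) and on the KO pair (y axis) for each member detected on both pairs of 4 gene lists (number in the title), with the line of equality dotted. Cell cycle genes lie at the lower left and the calcium, phosphate and pH genes mostly at the upper right, while interferon-induced genes lie mostly right of 0 in CON and mostly below 0 in KO.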

How the data were processed

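The authors hybridized labelled RNA to Illumina Mouse Ref 8 bead arrays and read them in GenomeStudio, whose version is not given in the sources used here. The main deposited table holds, for 25697 probes on 6 arrays, linear intensity without background subtraction or scaling, and detection p-values. A second deposited table holds intensity normalized by the authors with a method that is not named, and served as an alternative.

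Intensities were background-corrected from the detection p-values, quantile normalized over the 6 arrays and put on the log2 scale with neqc (limma 3.58.1, R 4.3.3, offset 16), and summarized in Python 3.11.15. A single array per group limits the precision. Median intensities were 179.7 on CON CL and 175.3 on CON Sec, where 8444 and 8451 genes were detected. The platform annotation named 1 gene for 23978 probes and none for 1719. Genes with several probes took the brightest over the 6 arrays, and in 200 of 217 called genes with several detected probes all lay in 1 direction. The steps were tested on simulated data.

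The fold of 1.5 follows the methods, whose p cannot be repeated here. Members, 40 gene lists and named genes were chosen with earlier results of these data known. The rule named the 15 largest differences each way, the 10 largest bounds each way, up to 8 members per list with those going against it, and genes the paper names. Other genes named, the lists of interferon-induced, sex-linked and detoxifying genes, and the V-ATPase, H2A and H2B subsets were chosen after their values were seen. Alternatives covered the fold, the detection filter, the normalization, the offset and the handling of probes.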

Additional observations from a re-analysis of the deposited data

Results flagged for a closer look

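With 1 array per group no group could be checked for an outlying sample. Of the genes named by the rule, 11 passed the threshold in opposite directions between CL and Sec in the 2 genotypes. Among all members, 30 of the 576 genes higher in CON were lower in KO, and 38 of the 489 lower were higher. Opposite calls are therefore not particular to the named genes. The difference between genotypes was not tested in any of them, since each value rests on 1 pair of arrays. Of the 11, 9 were lower at Sec in CON and higher in KO. They were Gdf10 (-1.90 in CON and 0.97 in KO), Lrig1 (-1.71 and 1.33), Caln1 (bounds of -1.18 and 2.28), Cldn4 (a bound of -1.11, and 4.75), the inner root sheath keratin Krt73 (-0.91 and 5.52), the epithelial lectin Lgals7 (-0.72 and 3.37), elastin (Eln, -0.71 and 1.33), the smooth muscle myosin Myh11 (-0.68 and 1.37) and Egr1 (-0.62 and 1.15). The other 2, Dlx4 (0.80 and -0.79) and Sfrp4 (0.61 and a bound of -0.94), were higher in CON and lower in KO. Caln1, Cldn4, Lgals7, Eln, Myh11, Dlx4 and Sfrp4 did not pass in CON with the deposited normalized values.

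The interferon-induced genes had medians of opposite sign, 0.47 in CON and -0.40 in KO, and this difference was not tested either. The CON Sec array carried the highest value of 40 of the 58 detected members. The list was put together after Ifit3 was seen to be high on that array. On the same array Xist was not detected and 11 of 15 neutrophil genes had their lowest value of all 6 arrays, and 10 of 19 macrophage genes had their highest (medians 0.39 in CON and -0.22 in KO). The part of any of these in the interferon values was not tested. How many of all members had their highest or lowest value on CON Sec was not counted.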

How the results depend on the processing

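A fold of at least 2 gave 207 genes higher and 103 lower at Sec, and a fold of at least 4 gave 45 and 5, against 576 and 489 at 1.5. The deposited normalized values, which keep the background, gave 316 and 191. With no detection filter 811 were higher and 812 lower. The counts stayed within 1.5 times of the main ones under a detection p-value of 0.05 (669 and 639), detection on both arrays (499 and 438), the 2 CON arrays normalized alone (580 and 497), a common median (469 and 694), an offset of 50 (476 and 362) and averaged probes (588 and 479). Without genes on chromosomes X and Y, a choice made after seeing the data, they were 560 and 470. The medians of the BMP and TGF-beta list (0.06) and of the dental transcription factors (0.02), both near 0, turned to -0.01 and -0.04 with a common median, which also moved the median of all genes from -0.05 to -0.12. Among 186 named genes past the threshold, 57 missed it with the deposited normalized values, 19 with a common median, 17 with an offset of 50 and 5 with averaged probes, and none changed sign. No paired analysis was possible because each group has 1 array. For the same reason no replicate could be left out. With the deposited normalized values differences of dim genes were smaller, such as 5.68 for Klk4 (6.74), 3.42 for the bound of Slc24a4 (4.78), 2.88 for Gpx2 (4.11) and 1.42 for Wnt10b (2.42). Genes detected on 1 of the 2 arrays have bounds only, and whether differences of genes near 15.32 are compressed was not tested.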
